A study of Arabidopsis thaliana with 12 samples.

Results

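CC-type glutaredoxins are a class of small plant redox proteins, and 10 Arabidopsis thaliana loci of this class were followed here through a cytokinin treatment in wild-type plants and in plants overexpressing the response regulator ARR22. The 10 loci are a part of the class, named with earlier results of these data known, so counts over them do not stand for the class. Another 11 CC-type loci were listed apart. Only loci with a probe set paired with that gene alone were described. This left 9 of the 10 loci, out of 13355 genes with such a probe set in the gene assignment used, which names no gene for 8730 probe sets. The locus without a probe set of its own in that assignment, AT4G15670, was not analysed here.

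The data came from 12 single-colour arrays of complete 21-day-old vegetative plants, in 4 groups of 3 arrays. They were Col-0, the wild type, and the overexpression line ARR22-ox, each either without treatment or after 3 h with t-zeatin at 20 µM. The untreated plants are labelled as receiving nothing, and no group is labelled as a 3 h mock treatment. A response to handling, solvent or the passing of 3 h therefore cannot be told apart from a response to t-zeatin. The promoter that drives ARR22, the number of independent lines and the source of the 3 arrays of a group are not given in the sources used here, so p-values reflect array-to-array spread, which may be technical.

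Glutaredoxins reduce disulphides and glutathione adducts on other proteins with electrons from glutathione. The CC-type class occurs in land plants only and is named for adjacent cysteines in its active site. Several of its proteins bind TGA transcription factors and TOPLESS co-repressors, and the class is known for roles in flower development, defence and nitrogen signalling. CC-type genes of the cluster on chromosome 4 are known for induction by nitrate and for restraining growth of the primary root. t-Zeatin is a natural cytokinin, a hormone whose signal passes by phosphate transfer to response regulators. ARR22 is a type-C response regulator whose overexpression is known to dampen cytokinin responses.

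The 9 loci lie in several places. In the order of protein-coding genes of the TAIR10.1 annotation, AT4G15660, AT4G15670, AT4G15680, AT4G15690 and AT4G15700 follow each other on chromosome 4 with no other gene between them. AT3G62930 and AT3G62950 lie on chromosome 3 with 1 gene between them, and the next gene after AT3G62950, AT3G62960, is another CC-type locus. AT5G18600, AT1G03020 and AT2G30540 are not next to another CC-type gene. All 9 probe sets have the plain _at suffix that marks a probe set designed against a single transcript. The neighbouring genes of the chromosome 4 cluster are close copies, and whether its probe sets also bind RNA of a neighbour was not tested.

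Signals are on a linear scale, and the arrays share the same trimmed mean. A probe set was tested when its mean log2 signal over all 12 arrays reached the 40th percentile, equal to a signal of 24.3. Only 4 of the 9 loci passed this filter: AT5G18600, AT2G30540, AT3G62930 and AT4G15660. AT3G62930 and AT4G15660 passed narrowly, with mean signals of 25.8 and 24.9, and neither would have passed without the Col-0 t-zeatin arrays, in which both were brightest. Genes that pass in that way had to differ between groups, so counts over the tested loci support nothing by themselves. The other 5 loci had mean signals of 23.8 (AT4G15680), 23.1 (AT4G15700), 22.3 (AT1G03020), 13.8 (AT4G15690) and 2.96 (AT3G62950), and they are given below with a fit that used no filter. In dim probe sets the log2 scale stretches small differences in signal, so changes after adding 16 to each signal are given beside them.

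The array for ARR22-ox untreated replicate 3 stood apart. Its mean Pearson correlation of log2 signals with its own group was 0.936, against 0.948 to 0.964 for the other 11 arrays, and its 3'/5' signal ratio for the GAPDH control was 1.82, against 0.881 to 1.08. ARR22 signals (AT3G04280, listed as RR22) lay between 2752 and 3661 on the ARR22-ox arrays and between 0.397 and 1.92 on the Col-0 arrays, as the labels have it. Of the markers of the complete plant, 2 of 4 for leaf and 2 of 6 for root had a probe set of their own and all 4 were above the filter. None of 3 flower markers had one.

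**Figure D1:**
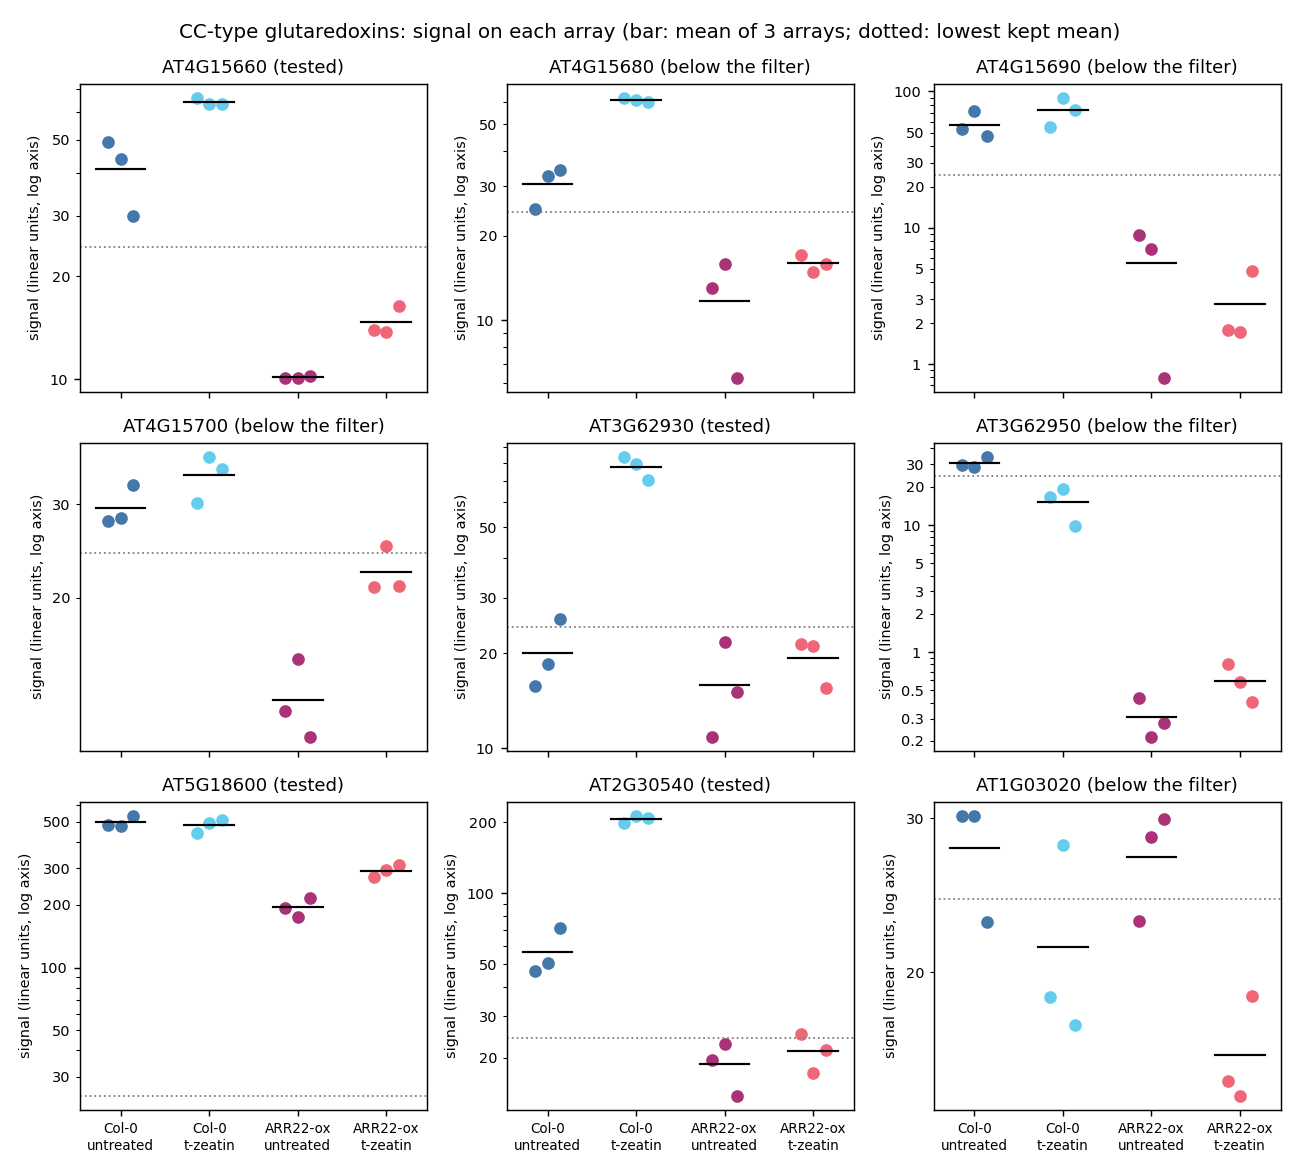
Signal of the 9 CC-type glutaredoxin loci on each of the 12 arrays (y axis: MAS5 signal, log axis; points: arrays; bars: means of 3 arrays; dotted line: lowest mean signal kept by the filter, 24.3). AT2G30540, AT3G62930, AT4G15660 and AT4G15680 are highest on all 3 Col-0 t-zeatin arrays. After t-zeatin the genotypes overlap for AT1G03020, and the other loci are lower on every ARR22-ox array than on every Col-0 array. The share of all probe sets separated in this way was not counted.

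The first comparison asked how the loci responded to t-zeatin in wild-type plants. AT2G30540 and AT3G62930 rose 3.76- and 3.97-fold, loci of the chromosome 4 cluster rose less or did not pass the test, and the brightest locus, AT5G18600, showed no change that passed. Without the filter, 4 of 9 loci rose, against a background of 14.3% of 22746 probe sets. None was lower at an adjusted p under 0.05 in limma, against a background of 12.5%, and 1 of 9, AT3G62950, was lower at an unadjusted p under 0.05. With the filter, 3 of 4 rose (background 23.7% of 13648 probe sets), and the background of falls was 21.1%. AT3G62930 and AT4G15660 were tested only because they were bright after t-zeatin in Col-0, so this filtered count is no support. The median log2 change of the 9 loci was 0.34, beside -0.00315 over all 22746 probe sets.

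AT2G30540 had signals of 46.9, 50.4 and 70.9 on the untreated Col-0 arrays and of 199.6, 213 and 209 after t-zeatin. All 3 treated arrays lay far above all 3 untreated ones. The log2 change was 1.91 ± 0.21 (SE, n = 3 arrays per group; limma adjusted p = 1.48e-05), a 3.76-fold rise, and it ranked 81 from the top of all tested probe sets.

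AT3G62930 had signals of 15.8, 18.5 and 25.7 without treatment and of 83.8, 79.3 and 70.5 after t-zeatin. The groups did not overlap, and only 1 untreated array, at 25.7, exceeded the lowest kept mean. The log2 change was 1.99 ± 0.25 (SE; limma adjusted p = 4.96e-05), a 3.97-fold rise and rank 70 from the top of the tested probe sets. With 16 added the change was 1.39, below the 1.65 of AT2G30540 with 16 added. This locus passed the filter only through the treated Col-0 arrays. Without the filter the limma adjusted p was 0.000105. AT3G62950, the CC-type locus next but 1 to it, went the other way: its signals were 29.6, 28.6 and 34.5 without treatment and 16.6, 19.1 and 9.90 after t-zeatin. These groups did not overlap either, but the log2 change of -1.07 missed the threshold in the fit without the filter (limma adjusted p = 0.112). With 16 added it was -0.60 and passed (limma adjusted p = 0.000883). The difference between these neighbours was not tested, because levels of different probe sets cannot be set against each other.

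In the chromosome 4 cluster AT4G15660 rose from 49.3, 43.8 and 29.9 to 66.2, 63.6 and 63.5. The treated arrays lay close together and above the untreated ones, which spread more. The log2 change was 0.68 ± 0.18 (SE, n = 3; limma adjusted p = 0.00795), or 0.51 with 16 added. This locus, too, passed the filter only through the treated Col-0 arrays, and without the filter the limma adjusted p was 0.0197. AT4G15680 went from 25.0, 32.6 and 34.3 to 62.1, 60.9 and 59.8, again without overlap. In the fit without the filter its log2 change was 1.01 ± 0.29 (SE; limma adjusted p = 0.0202), or 0.73 with 16 added.

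The other loci of the cluster, AT4G15690 and AT4G15700, overlapped between the Col-0 groups. AT4G15690 had signals of 52.9, 71.8 and 47.1 untreated and 54.7, 90.1 and 72.9 after t-zeatin, and its log2 change of 0.34 had a 95% interval from -1.26 to 1.93. AT4G15700 had 27.8, 28.3 and 32.5 untreated and 30.2, 36.9 and 34.9 after t-zeatin, with a log2 change of 0.20 (interval -0.21 to 0.61). The interval of AT4G15690 is wide enough to hold the change measured for AT4G15680.

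AT5G18600 had signals of 482, 476 and 535 on untreated Col-0 arrays and of 444, 496 and 513 after t-zeatin. The groups overlapped, and the log2 change of -0.04 had a 95% interval from -0.25 to 0.17 (limma adjusted p = 0.767), so a change as large as that of AT2G30540 lies outside it. AT1G03020 had 30.2, 30.2 and 22.9 untreated and 18.7, 27.9 and 17.4 after t-zeatin. These overlapped as well, with a log2 change of -0.40 (interval -0.89 to 0.10).

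The second comparison asked the same in ARR22-ox plants. The strong rises of AT2G30540 and AT3G62930 were not seen there, while AT5G18600 and AT4G15700 rose by 0.59 and 0.81 on the log2 scale and AT1G03020 fell. Without the filter, 2 of 9 loci rose (background 15.9%) and 1 fell (background 16.1%). With the filter, 2 of 4 rose (background 25.2%), and the background of falls was 25.1%. The median log2 change of the 9 loci was 0.53, beside -0.00618 over all 22746 probe sets.

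AT2G30540 had signals of 19.6, 23.0 and 13.8 on untreated ARR22-ox arrays and 25.3, 17.2 and 21.5 after t-zeatin. The groups overlapped, and the log2 change of 0.20 did not pass (95% interval -0.26 to 0.65; limma adjusted p = 0.458). It was -0.0109 without ARR22-ox untreated replicate 3, the lowest of these 6 values. AT3G62930 had 10.9, 21.8 and 15.0 untreated and 21.4, 21.1 and 15.5 after t-zeatin, with a log2 change of 0.33 that did not pass (interval -0.22 to 0.88; limma adjusted p = 0.304). With an array left out, this change of AT3G62930 lay between 0.082 without ARR22-ox untreated replicate 1 and 0.58 without replicate 2 of that group, and it was not called.

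AT5G18600 went from 193, 175 and 216 to 271, 295 and 311. All 3 treated arrays lay above the untreated ones, and the log2 change was 0.59 ± 0.10 (SE, n = 3; limma adjusted p = 0.000342). AT4G15700 went from 12.3, 15.4 and 10.96 to 21.0, 25.0 and 21.1 without overlap, with a log2 change of 0.81 ± 0.19 in the fit without the filter (limma adjusted p = 0.00522), or 0.41 with 16 added. AT1G03020 fell from 22.9, 28.5 and 29.9 to 15.0, 14.5 and 18.8, a log2 change of -0.75 ± 0.23 (limma adjusted p = 0.0236), or -0.42 with 16 added.

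AT4G15660 had signals of 10.1, 10.1 and 10.2 untreated and 13.9, 13.7 and 16.4 after t-zeatin. The groups did not overlap, but all 6 values lay below the lowest kept mean of 24.3. Its log2 change of 0.53 passed narrowly (limma adjusted p = 0.0267). That call was lost without the filter (0.0572), with only the 6 arrays compared (0.0908) and with 16 added (log2 change 0.23, adjusted p = 0.114). It was also lost when ARR22-ox untreated replicate 1 (0.0540) or 2 (0.0534) or ARR22-ox t-zeatin replicate 3 (0.0956) was left out of the limma fit.

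The remaining loci had no ARR22-ox response that passed. AT4G15680 had 13.0, 15.8 and 6.24 untreated and 17.1, 14.8 and 15.9 after t-zeatin. AT4G15690 had 8.91, 6.96 and 0.795 untreated and 1.79, 1.72 and 4.78 after t-zeatin. The lowest untreated signals of both, 6.24 and 0.795, were on ARR22-ox untreated replicate 3, the array that stood apart. AT3G62950 lay between 0.216 and 0.808 on all 6 ARR22-ox arrays. Their log2 changes were 0.55, -0.58 and 0.95, and none passed in the fit without the filter (limma adjusted p = 0.182, 0.610 and 0.146).

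**Figure D2:**
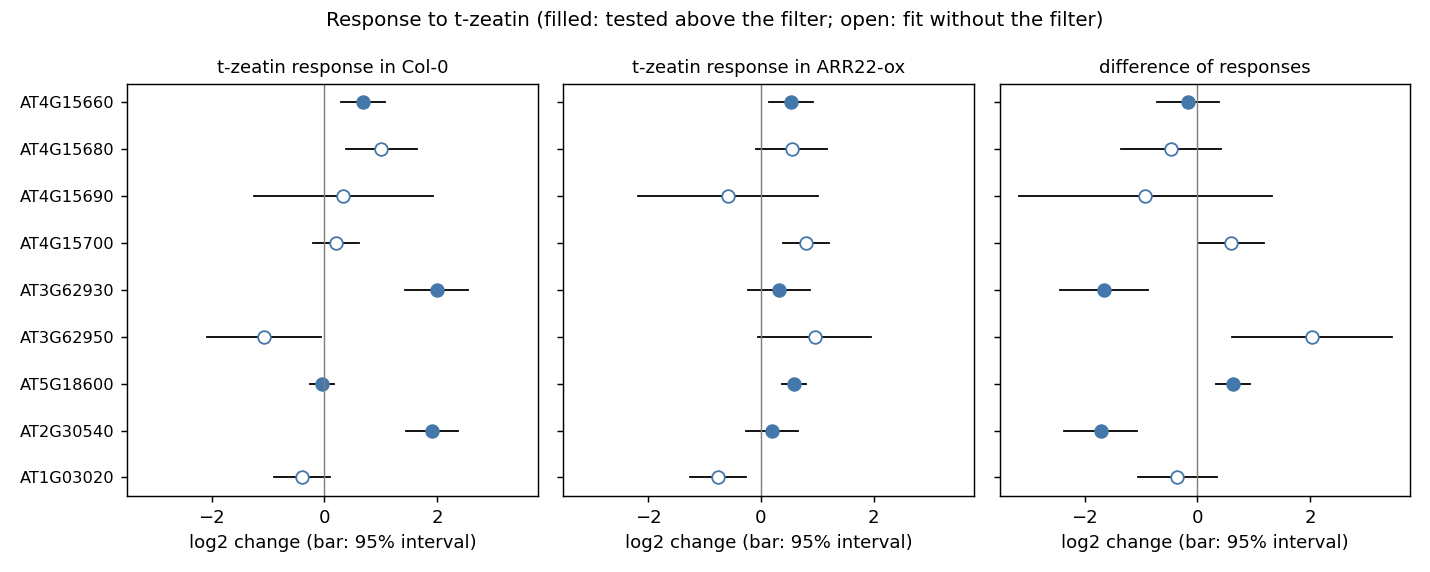
Log2 change after t-zeatin in Col-0 (left) and ARR22-ox (middle), and ARR22-ox response minus Col-0 response (right), for the 9 CC-type glutaredoxin loci (points: limma estimate; bars: 95% interval; filled: tested above the filter; open: fit without the filter). AT3G62930 and AT2G30540 lie near 2 in Col-0 and near 0 in ARR22-ox, whereas AT5G18600 lies near 0 in Col-0 and at 0.59 in ARR22-ox.

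The third comparison was a direct test of whether the response to t-zeatin depended on genotype (ARR22-ox response less the Col-0 response). It separated the loci into a pair with a lower response in ARR22-ox, AT2G30540 and AT3G62930, and others with a higher response or no called difference. AT2G30540 differed by -1.71 ± 0.30 (SE, n = 3 arrays per group; limma adjusted p = 0.000498). AT3G62930 differed by -1.66 ± 0.36 (limma adjusted p = 0.00237, or 0.00473 without the filter). AT5G18600 differed in the other direction, by 0.63 ± 0.14 (limma adjusted p = 0.00269). These 3 differences kept their direction and stayed past the threshold with every array left out in turn and under each other setting in which the locus was tested.

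For AT4G15660 the difference of -0.16 was not called, with a 95% interval from -0.71 to 0.39. Without the filter, 2 of 9 loci responded more in ARR22-ox (background 13.1%) and 2 responded less (background 15.2%). With the filter these were 1 and 2 of 4, against backgrounds of 21.1% and 24.5%. The filtered counts are no support, because AT3G62930 and AT4G15660 passed only through the Col-0 t-zeatin arrays. The second locus with a higher response was AT3G62950, with a difference of 2.03 in the fit without the filter (limma adjusted p = 0.0346), or 0.62 with 16 added. It combines the uncalled Col-0 change of -1.07 with an uncalled ARR22-ox change of 0.95 among signals under 1, and with 16 added these were -0.60 and 0.03. The intervals of AT4G15680 (-1.35 to 0.43), AT4G15690 (-3.17 to 1.33) and AT1G03020 (-1.06 to 0.35) held 0, and AT4G15700 had a difference of 0.61 that missed the threshold (limma adjusted p = 0.114).

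The last comparisons asked how the genotypes differed without and with t-zeatin. They use the same arrays as the responses, so they are not separate evidence. Most of the 9 loci were lower in ARR22-ox in both conditions. Without the filter, 7 of 9 were lower in untreated plants (background 15.5%) and 8 of 9 after t-zeatin (background 18.1%). None was higher in limma, also at an unadjusted p under 0.05, against backgrounds of 15.5% and 15.1%. With the filter these were 3 of 4 lower untreated (background 24% lower and 24.5% higher) and 4 of 4 after t-zeatin (background 28% lower and 23.1% higher). These filtered counts, too, hold AT3G62930 and AT4G15660, which passed only through the Col-0 t-zeatin arrays, and are no support. The median log2 difference of the 9 loci was -1.48 untreated and -2.02 after t-zeatin, beside -0.00485 and -0.04 over all 22746 probe sets.

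AT2G30540 was lower in ARR22-ox by -1.58 ± 0.21 on the log2 scale without treatment (limma adjusted p = 5.68e-05), or -1.04 with 16 added. After t-zeatin the difference was -3.30 ± 0.21 (limma adjusted p = 1.06e-07), a 9.83-fold lower level, or -2.59 with 16 added. The lowest Col-0 array was then at 199.6 and the highest ARR22-ox array at 25.3. AT2G30540 ranked 22 from the bottom of all 13648 tested probe sets. Its groups therefore ran from Col-0 t-zeatin through Col-0 untreated to the ARR22-ox groups, which overlapped each other.

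AT3G62930 was lower in ARR22-ox after t-zeatin, and its difference without treatment did not pass. Without treatment its genotypes overlapped (log2 difference -0.36, 95% interval -0.91 to 0.19, and -0.62 to -0.11 with an array left out). After t-zeatin ARR22-ox was lower by -2.02 ± 0.25 (SE; limma adjusted p = 3.11e-05, or 6.54e-05 without the filter). The other 3 groups of this locus overlapped each other below the Col-0 t-zeatin level.

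AT5G18600 was lower in ARR22-ox in both conditions, by -1.36 ± 0.10 untreated (limma adjusted p = 3.16e-07) and by -0.73 ± 0.10 after t-zeatin (limma adjusted p = 5.48e-05). This locus is bright in all 12 arrays, with signals from 175 to 535, so its differences do not rest on dim values. Its Col-0 groups overlapped, the ARR22-ox t-zeatin group lay below them, and the ARR22-ox untreated group lay lowest.

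All 4 measured loci of the chromosome 4 cluster were lower in ARR22-ox untreated (background 15.5% without the filter) and after t-zeatin (background 18.1%). Their genotypes did not overlap, and the share of all probe sets without overlap was not counted. Binding of a neighbour's RNA was not tested, so these may not be 4 separate observations. AT4G15660 differed by -1.98 ± 0.18 untreated (limma adjusted p = 2.25e-06) and by -2.14 ± 0.18 after t-zeatin (limma adjusted p = 1.05e-06), or by -1.11 and -1.39 with 16 added. Without the filter its limma adjusted p was 7.17e-06 untreated and 3.26e-06 after t-zeatin. In the fit without the filter AT4G15680 differed by -1.48 and -1.94 (limma adjusted p = 0.00165 and 0.000187), or by -0.76 and -1.27 with 16 added. AT4G15690 had the largest estimates of the cluster, -3.94 and -4.86 (limma adjusted p = 0.00117 and 0.000207), which shrank to -1.77 and -2.22 with 16 added. For AT4G15680 and AT4G15690 the lowest untreated ARR22-ox signals, 6.24 and 0.795, were on replicate 3, the array that stood apart. Neither locus was refitted without that array. AT4G15700 differed by -1.21 untreated and -0.60 after t-zeatin (limma adjusted p = 0.000303 and 0.0244), or by -0.66 and -0.38 with 16 added.

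AT3G62950 was lower in ARR22-ox in both conditions, without overlap. Its Col-0 signals lay between 9.90 and 34.5 and its highest ARR22-ox signal was 0.808. The log2 differences of -6.70 untreated and -4.67 after t-zeatin (limma adjusted p = 3e-07 and 6.51e-06, without the filter) rest on those small denominators and were -1.52 and -0.90 with 16 added, still past the threshold (limma adjusted p = 4.81e-07 and 2.95e-05). AT1G03020 was the locus without a genotype difference that passed: its log2 differences were -0.03 (95% interval -0.53 to 0.47) and -0.39 (interval -0.88 to 0.11).

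In whole plants, fewer cells of a type and less RNA per cell cannot be told apart. Some organ markers also differed between genotypes. The summed signal of the 2 root markers lay between 2045 and 2253 in Col-0 untreated, 2052 and 2111 in Col-0 t-zeatin, 1588 and 1815 in ARR22-ox untreated and 1364 and 1463 in ARR22-ox t-zeatin. That of the 2 leaf markers lay between 5391 and 5469, 4202 and 4367, 3709 and 4598, and 3136 and 3435 in the same order. The root marker PYK10 (AT3G09260), a beta-glucosidase of roots, was lower in ARR22-ox by -0.35 untreated and -0.57 after t-zeatin, and the root-hair expansin EXPA7 (AT1G12560) by -0.05 (not called) and higher by 0.76. Of the leaf markers, LHCB4.2 (AT3G08940), an antenna protein of photosystem II, was lower in ARR22-ox by -0.91 and -0.74, both called. RCA (AT2G39730), which activates Rubisco, had differences of -0.14 and -0.17 that were not called (limma adjusted p = 0.119 and 0.0614). Their part in the glutaredoxin differences was not tested.

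**Figure D3:**
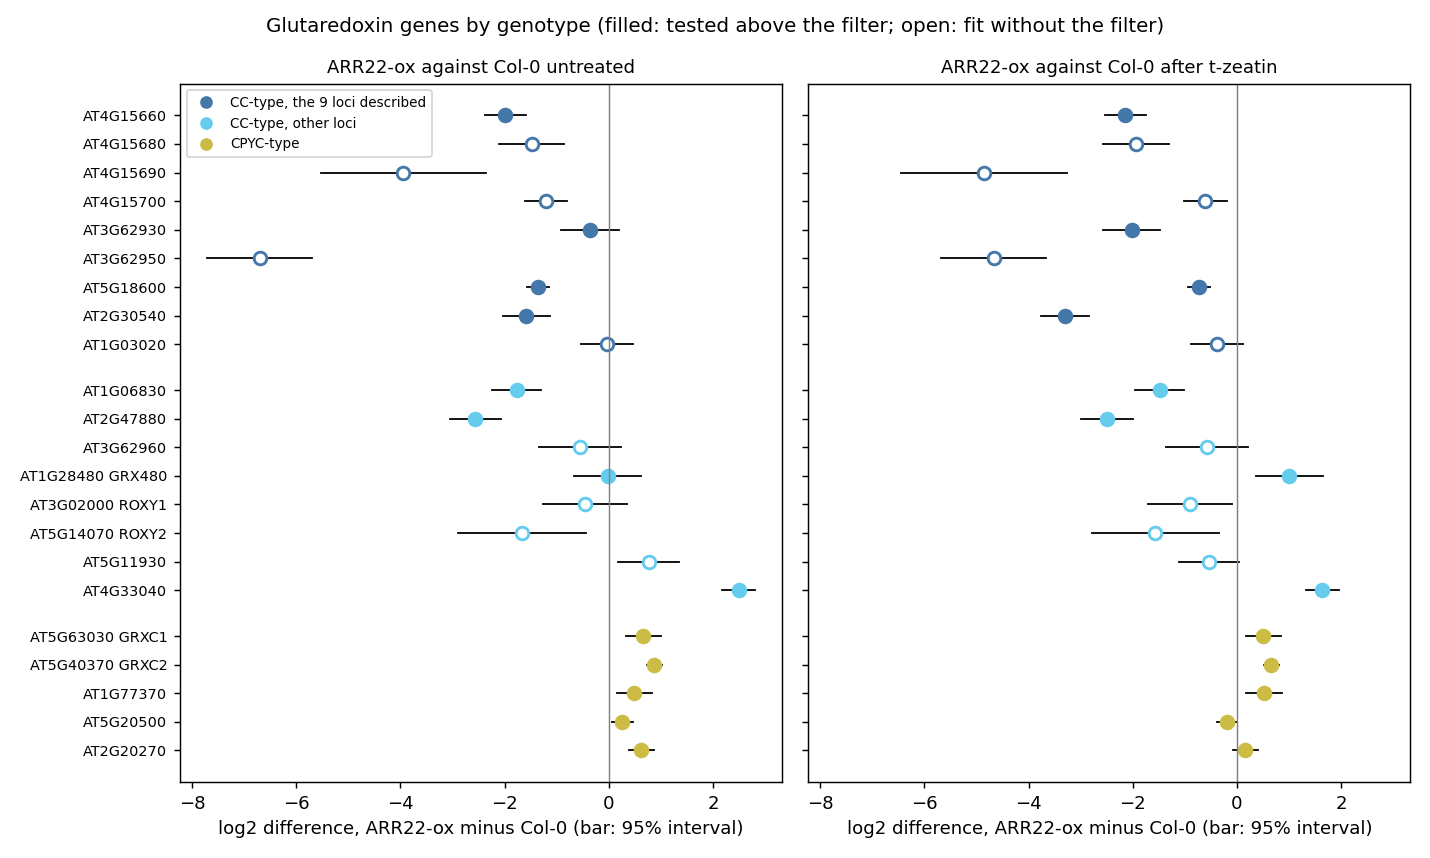
Log2 difference between ARR22-ox and Col-0 for the 9 CC-type loci, 8 other CC-type loci and 5 CPYC-type glutaredoxins, in untreated plants (left) and after t-zeatin (right) (points: limma estimate; bars: 95% interval; filled: tested above the filter; open: fit without the filter). The 9 loci lie at or below 0 on both sides, AT4G33040 lies at 2.50 and 1.64, and the CPYC-type genes lie between 0.26 and 0.87 untreated.

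The rest of the class and the other glutaredoxins did not all follow. Of 11 further CC-type loci, 8 had a probe set of their own and 4 passed the filter, and in untreated plants 2 of these 4 were lower (background 24%) and 1 was higher (background 24.5%) in ARR22-ox. After t-zeatin 2 were lower (background 28%) and 2 were higher (background 23.1%). AT2G47880 had signals of 74.5, 59.8 and 68.7 in Col-0 untreated and of 8.16, 10.4 and 17.6 in ARR22-ox untreated, a log2 difference of -2.56 ± 0.23 (SE; limma adjusted p = 1.9e-06), or -1.59 with 16 added. AT1G06830 differed by -1.77 ± 0.22 (limma adjusted p = 3.28e-05). Both were also lower after t-zeatin, by -2.49 and -1.48. Neither responded to t-zeatin beyond the threshold, with Col-0 changes of 0.30 and 0.25.

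AT4G33040 went the other way. Its signals were 26.7, 23.5 and 30.7 in Col-0 untreated and 143, 155 and 156 in ARR22-ox untreated, a log2 difference of 2.50 ± 0.14 (SE, n = 3; limma adjusted p = 4.78e-08), and after t-zeatin it was 1.64. In ARR22-ox it fell after t-zeatin by 1.15 on the log2 scale, and the difference of responses was -0.86 ± 0.20 (limma adjusted p = 0.00433).

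GRX480 (AT1G28480), which binds TGA factors and is induced by salicylic acid, had an untreated log2 difference of -0.02 that did not pass, with a wide 95% interval from -0.67 to 0.63. After t-zeatin it was higher in ARR22-ox by 1.01 (limma adjusted p = 0.013). In ARR22-ox it rose from 53.5, 61.1 and 21.5 to 112, 99.2 and 110, a log2 change of 1.37 ± 0.30 (limma adjusted p = 0.00222), or 0.90 without ARR22-ox untreated replicate 3, its lowest value in that group. ROXY1 and ROXY2, which act in petals and anthers, had mean signals over all 12 arrays of 9.80 and 6.0, below the filter, as were AT3G62960 and AT5G11930. In the fit without the filter ROXY2 (AT5G14070) was lower in ARR22-ox by -1.67 untreated (limma adjusted p = 0.0399), or -0.37 and not called with 16 added. After t-zeatin it was lower by -1.56 (limma adjusted p = 0.0497), or -0.56 with 16 added. AT5G11930 went from 23.7, 25.0 and 40.03 to 9.40, 13.0 and 11.4 after t-zeatin in ARR22-ox, a log2 change of -1.36 (limma adjusted p = 0.00172), or -0.73 with 16 added. It was higher in untreated ARR22-ox plants by 0.77 (limma adjusted p = 0.0462), or 0.45 with 16 added, and its difference of responses was -1.30 (limma adjusted p = 0.0213).

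CPYC-type glutaredoxins are a class shared with animals and yeast. The 5 with a probe set of their own, of 10 CPYC- and CGFS-type loci listed, were all higher in untreated ARR22-ox plants (background 24.5%), with a median log2 difference of 0.62. GRXC2 (AT5G40370), a cytosolic glutaredoxin, had 953, 957 and 1041 in Col-0 and 1713, 1813 and 1875 in ARR22-ox (log2 difference 0.87 ± 0.07, SE; limma adjusted p = 5.72e-07). AT2G20270 was higher by 0.62 (limma adjusted p = 0.000559). After t-zeatin 4 of 5 fell in ARR22-ox (background 25.1%). The log2 changes were -0.43 for GRXC1, -0.32 for GRXC2, -0.37 for AT5G20500 and -0.48 for AT2G20270 (limma adjusted p = 0.034, 0.00168, 0.00504 and 0.00334). The call of GRXC1 was lost in 4 of 19 alternatives. AT5G20500 had a difference of responses of -0.45 (limma adjusted p = 0.0122). That of AT2G20270, -0.46 (limma adjusted p = 0.03), was lost in 8 of 18 alternatives, each leaving out an array, with adjusted p up to 0.0798. In the untreated genotype comparison the calls of AT1G77370 (0.49) and AT5G20500 (0.26) were lost with only the 6 arrays compared (limma adjusted p = 0.0891 and 0.127). They were also lost without Col-0 untreated replicate 1 (limma adjusted p = 0.0852 and 0.0736) or 2 (0.0520 and 0.0758). AT5G20500 also lost its call without Col-0 untreated replicate 3 (0.0607) and without the trend in the variance (0.0542). Without ARR22-ox untreated replicate 3 all 5 remained higher, with GRXC1 at 0.44 in place of 0.67, AT1G77370 at 0.27 and AT5G20500 at 0.14. After t-zeatin 3 of 5 were higher (background 23.1%), of which GRXC1 lost its call without Col-0 t-zeatin replicate 3 (limma adjusted p = 0.0522), and AT1G77370 without that array (0.0589) or ARR22-ox t-zeatin replicate 1 (0.0531).

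Glutathione reductases, which keep glutathione in its reduced form, were split. GR1 (AT3G24170) was higher in untreated ARR22-ox plants by 0.89 ± 0.09 on the log2 scale (SE; limma adjusted p = 4.98e-06), and GR (AT3G54660) was lower by -0.65 ± 0.09 (limma adjusted p = 0.000116). GR also fell after t-zeatin in Col-0, by 0.61. None of the 10 listed TGA factors and none of the 5 TOPLESS co-repressors had a probe set of its own in the table used, so they were not analysed here. Of 19 nitrate response and assimilation genes only AT1G68670 had one. It was higher in untreated ARR22-ox plants by 0.61 and fell after t-zeatin in ARR22-ox by 0.71 on the log2 scale (limma adjusted p = 4.5e-05 and 1.26e-05).

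Type-A response regulators, rapid targets of cytokinin signalling, give a reference for the hormone response, and 2 of 10 had a probe set of their own. RR16 (AT2G40670), the one tested, had means of 27.1 ± 3.74 and 244 ± 17.0 in Col-0 without and with t-zeatin, and of 17.7 ± 6.27 and 8.55 ± 1.42 in ARR22-ox (SD, n = 3), with a difference of responses of -4.18 (limma adjusted p = 5.88e-07). ARR15 (AT1G74890) had signals of 12.1, 12.6 and 11.7 in Col-0 untreated and of 152, 155 and 135 after t-zeatin, and it lay between 1.86 and 12.2 on all 6 ARR22-ox arrays. Without the filter its difference of responses was -4.57 (limma adjusted p = 0.000186). AT2G30540 and AT3G62930 also rose in Col-0 and responded less in ARR22-ox, with smaller log2 changes. Within ARR22-ox the signs differed. RR16 changed by -1.01 (limma adjusted p = 0.0022), or -0.44 with 16 added, and ARR15 by -0.97 (not called). AT2G30540 and AT3G62930 changed by 0.20 and 0.33 there, neither called.

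Genes with the most similar pattern were sought for each tested locus as those with the highest Pearson r of log2 signal over the 12 arrays. The points share 4 groups, so r mainly reflects the group levels. For AT2G30540 the first was AT5G61660 (r = 0.989), with Col-0 means of 202 ± 10.3 untreated and 299.9 ± 0.670 treated, and ARR22-ox means of 141 ± 25.6 and 141 ± 10.4 (SD, n = 3). AT4G27720 (0.970) and GH9C2 (AT1G64390; 0.969), a glycosyl hydrolase of family 9, followed. For AT3G62930 they were AT5G14520 (0.960), AT1G20220 (0.958) and AT5G47455 (0.953).

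For AT5G18600 the most similar genes were AT1G12500 (r = 0.984), AT1G66940 (0.983) and AT3G06070 (0.979). AT1G12500 had Col-0 means of 235 ± 9.10 untreated and 265 ± 3.32 treated, and ARR22-ox means of 85.8 ± 11.7 and 139 ± 3.58 (SD, n = 3). For AT4G15660 they were SETH3 (AT3G54690; 0.975), AT1G09660 (0.975) and the subtilase gene SBT4.12 (AT5G59090; 0.973). Without ARR22-ox untreated replicate 3 the r of these 12 genes lay between 0.952 and 0.993, and AT5G61660, AT1G12500 and AT1G66940 were still among the first 3 of their locus.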

How the data were processed

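The deposited values are linear intensity, one value for each probe set. Per the submitters' processing notes they were made with MAS5. In the deposited values all arrays had the same trimmed mean (2% removed at each end). Of 22810 probe sets, 64 were controls and were left out. The table for the array names a single gene for 13513 probe sets, several for 503 and no gene for 8730. Detection calls were not used here.

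Signals were taken to log2 and filtered on the mean over 12 arrays. A limma 3.58.1 model (R 4.3.3) with 4 group means, 8 residual degrees of freedom, empirical Bayes moderation and a variance trend was fitted to all 13648 tested probe sets. It was checked on simulated arrays. Tests were two-sided, with a threshold of 0.05 on p adjusted by Benjamini-Hochberg. Batches and pairs are not given in the labels, so batch and group cannot be told apart. No 2 arrays were identical. All 9 loci with a probe set of their own are named, with listed genes that had a probe set. Of the listed nitrate genes 1 of 19 had a probe set. Loci and lists were chosen with earlier results of these data known. Alternatives are given at the end.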

Additional observations from a re-analysis of the deposited data

Results flagged for a closer look

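The t-zeatin response differed between genotypes for 3 tested CC-type loci, by the test of the difference itself (limma, ARR22-ox response minus Col-0 response). The log2 difference was -1.71 for AT2G30540, -1.66 for AT3G62930 and 0.63 for AT5G18600. No group had the 4 arrays needed to look for a single array outside its group's range.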

How the results depend on the processing

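The 4 tested loci were recomputed with quantile normalization, arrays set to the same median, 16 added before log2, no filter, a filter at the 60th percentile (signal 61.1), only the groups compared (not for the difference of responses, which needs all groups), no variance trend, and each array left out. Of the recomputed changes, 351 kept their direction and side of the threshold, 6 lost the call (all AT4G15660 in ARR22-ox) and 4 changed sign. The sign changes were in uncalled values: AT5G18600 in Col-0 was 0.0122 without Col-0 untreated replicate 3 and 0.0205 without Col-0 t-zeatin replicate 1 (range with an array left out -0.083 to 0.0205), AT2G30540 in ARR22-ox was -0.0109 without ARR22-ox untreated replicate 3 (range -0.0109 to 0.36), and the difference of responses of AT4G15660 was 0.0566 without Col-0 untreated replicate 3 (range -0.31 to 0.0566). The number of loci called moved with the filter, because fewer or more loci were tested. With the 60th percentile only AT5G18600 was tested, and the counts were 0 in the Col-0 response (in place of 3; also 0 at an unadjusted p under 0.05), and 1 in the ARR22-ox response (in place of 2), the difference (in place of 3), the untreated genotype comparison (in place of 3) and that after t-zeatin (in place of 4). Without a filter the genotype counts were 7 and 8. In the ARR22-ox response the count was 1 with 16 added or only the groups compared, and 1 to 2 with an array left out. The 5 loci below the filter were computed only without the filter and, as chosen after seeing the data, with 16 added. The number of arrays per group limits the precision.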
